A study of Cyprinus carpio with 12 samples.

Results

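CpG methylation was examined in the vesicle transport and autophagy genes of common carp (Cyprinus carpio), in fresh and stored sperm and in the embryos that each gave. The genes were taken by a rule on symbols, which was set with earlier results of these data known. They are placed protein-coding genes of the carp RefSeq table whose symbols begin with set stems. These stems are vacuolar protein sorting (vps), sorting nexin (snx), exocyst (exoc), syntaxin and VAMP (stx, vamp), sec and COPI (cop). The others are adaptor complex (ap), TRAPP (trappc), rabac, ARL (arl) and autophagy (atg). Adaptor stems with the subunit letter a were not in the rule, so ap2a1, the large AP-2 subunit, is described with the other genes. This gave 115 of 41870 placed protein-coding genes. Because 32254 of the 41870 genes (77.0%) carry only a locus number, further genes of these families without a symbol were not reached. The symbol rule also took in vps72a and vps72b, which encode a subunit of a chromatin remodelling complex, and neither held a region.

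Whole-genome bisulphite sequencing had been applied to 12 libraries in 4 groups of 3, namely fresh sperm (0 days post stripping), sperm kept on ice in an extender for 14 days, and embryos at the mid-blastula stage from eggs fertilised with either. Per the methods, the same mature males gave sperm for both groups, a single female gave the eggs, and each embryo library pooled many embryos. The methods mention repeated hormone injection and stripping of males without saying if both groups shared 1 stripping, so storage cannot be told apart from the dates of stripping and fertilisation. The sperm comparison asks where methylation differs after storage, and the embryo comparison whether such differences are also found in the next generation. The deposited tables list differentially methylated regions with 1 level per group and region, the authors' mean methylation level of the group, so levels carry no replicate error and their depth is not known. A region is called hyper where its level was higher in the stored group and hypo where it was lower. Every listed region differed by at least 10 percentage points and held at least 5 cytosines in CpG context, and neither table gives a value for places that were not listed. No expression values were used here, so the tissue labels were not checked against marker genes.

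Vesicle transport moves proteins and lipids between membrane compartments. Coats such as COPI, COPII and the adaptor complexes form vesicles, tethering complexes such as TRAPP, exocyst, HOPS, CORVET, GARP and EARP catch them at the target membrane, and SNARE proteins fuse them with it. Sorting nexins, retromer and retriever recycle cargo from endosomes, and autophagy proteins enclose cytoplasm in a membrane that is passed on to the lysosome. Carp sperm, like that of most bony fish, has no acrosome, the secretory vesicle of mammalian sperm, and the early embryo depends on maternal stores of protein and RNA for membrane traffic until its own genome is transcribed. CpG methylation is high over most gene bodies in fish, with unmethylated stretches mainly at gene starts.

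Regions reached these genes at nearly the rate of other genes of like length. In sperm 30 of the 115 genes held a region in the gene body or within 1 kb of either end, or 26.1%, against 28.3% of all protein-coding genes. Genes of the same length, taken in 20 length bins, would give 30.2 of 115. In embryos 28 genes held a region (24.3%, against 26.9% of all genes), where genes of the same length would give 28.5. Regions in both tissues were found in 15 genes (14.0 at the same length; 14.5% of all genes) and in either tissue in 43 genes (44.7 at the same length; 40.7% of all genes). By direction, 20 genes held a hyper and 16 a hypo region in sperm, against 21.3% and 13.2% of all genes (22.2 and 13.6 genes at the same length). In embryos 17 genes held a hyper and 17 a hypo region, against 16.7% and 16.5% (17.2 and 17.1 at the same length). These shares lay near their backgrounds, and no test was run on them.

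Gene length went with the presence of a region. Of the 13 genes of 30 kb or longer, 9 held a sperm and 10 an embryo region, whereas of the 70 genes under 10 kb 9 held a sperm and 8 an embryo region. The same gradient was seen over all protein-coding genes, from 12.6% under 10 kb to 73.1% at 30 kb or longer in sperm and from 11.8% to 70.6% in embryos. The 72 genes without a region had a median length of 6.71 kb, the 43 with a region 14.3 kb, and the 15 with regions in both tissues 24.1 kb.

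**Figure D1:**
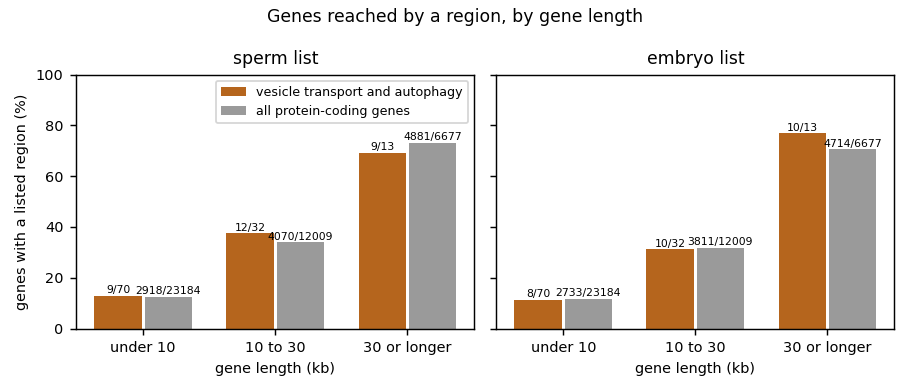
Share of genes with a listed region (percent, y axis) by gene length in kb (x axis), for the vesicle transport and autophagy genes and for all placed protein-coding genes, with the number of genes with a region over the number in the class above each bar. In both lists the bars rise with length for both sets, from 9 of 70 to 9 of 13 genes in sperm and from 8 of 70 to 10 of 13 in embryos.

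Hyper regions outnumbered hypo regions in sperm and were outnumbered in embryos. The sperm list gave 25 hyper and 19 hypo regions, 44 in all, so that 56.8% were hyper where regions touching any protein-coding gene had 64.0%. The embryo list gave 48 regions, 22 hyper and 26 hypo (45.8%, against 50.1%). The median absolute difference was 12.3 points in sperm and 12.6 in embryos, close to the 12.2 points of all genic regions in each list. Large differences were few. A difference of at least 20 points was listed in 1 sperm region (2.27%, against 8.23% of genic regions), in snx8b, and in 5 embryo regions (10.4%, against 9.08%), in rabac1, exoc6b, snx15, trappc8 and ap1m1. At least 15 points were reached by 10 sperm regions (22.7%, against 23.9%) and 10 embryo regions (20.8%, against 24.9%). The low sperm share at 20 points thus depends on the cutoff.

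Most regions lay at high methylation, as did those of other genes. The mean of both levels was at least 75% in 32 of the 44 regions in sperm (72.7%, against 81.1% of genic regions) and in 39 of the 48 in embryos (81.3%, against 79.5%). The median level of the hyper regions was 82.9% in fresh and 96.3% in stored sperm. At least 95% was reached in stored sperm by 15 of 25 (60.0%, against 61.0% of genic hyper regions). Hypo regions had medians of 96.2% in fresh and 81.4% in stored sperm. In embryos hyper regions had medians of 81.2% with fresh and 95.6% with stored sperm, and hypo regions 95.8% and 84.4%. Levels that at least doubled or halved were found in 5 sperm regions (11.4%, against 3.46% of genic regions) and 1 embryo region (2.08%, against 3.64%).

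**Figure D2:**
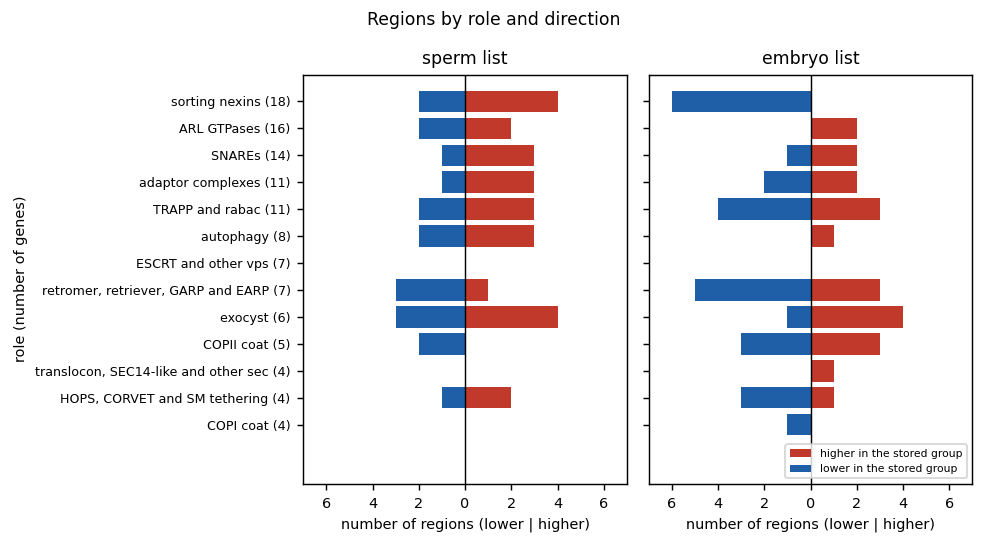
Number of listed regions by role of the gene (y axis, with the number of genes in brackets), with regions lower in the stored group drawn to the left and regions higher in the stored group to the right (x axis, number of regions), for the sperm and the embryo list. The 6 embryo regions of sorting nexin genes all lie to the left, and genes of the ESCRT group hold no region.

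Of the TRAPP genes and rabac1, 3 of 11 held a sperm region (2.70 at the same length) and 4 of 11 an embryo region (2.55). The largest difference of all was in rabac1, whose product binds prenylated Rab GTPases at Golgi and ER membranes. Its region (A16, 3484445 to 3484501) stood at 19.3% in embryos with fresh sperm and 64.3% with stored sperm, over 8 cytosines. It lies in the gene body, 73 bp from the higher-coordinate gene end, and also within 1 kb of a neighbouring protein-coding gene known by a locus number. No sperm region was listed in rabac1, and the nearest was 9155 bp away.

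The TRAPP genes differed in which tissue and direction they showed. In trappc8, a subunit of the TRAPPIII complex of autophagy, 3 sperm and 3 embryo regions were listed, each with 1 hyper and 2 hypo. A pair of its sperm regions lay 280 bp apart and went opposite ways, from 97.6% to 86.4% (10829857 to 10829941) and from 82.9% to 94.0% (10830221 to 10830284). A region of 22 cytosines near its lower-coordinate end was lower in embryos from stored sperm, at 75.3% and 61.8%. In trappc10, of the TRAPPII complex, a sperm region went from 82.3% to 96.4% and both embryo regions were lower with stored sperm, from 93.7% to 80.8% at a place 319 bp from it and from 97.6% to 87.4%. The core subunit gene trappc1 had 88.2% and 99.3% in embryos, 162 bp inside the gene. For trappc2l the region, 87.5% in fresh and 98.2% in stored sperm, lay 625 bp outside the gene, within the body of the neighbouring gene pabpn1l.

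The exocyst tethers secretory vesicles at the plasma membrane. Of the genes with an exocyst symbol 3 of 6 held a sperm region and 3 of 6 an embryo region (2.57 and 2.47 at the same length). These genes include exoc3l2a, exoc3l2b and exoc3l4, which are exoc3-like genes. The subunit gene exoc6b, 98.2 kb long, held 8 regions. Its embryo regions were all hyper, from 61.3% to 97.5% (B7, 14620634 to 14620685), from 86.0% to 97.3% and from 85.4% to 98.2%. Its sperm regions went both ways, with 3 hyper (84.8% to 95.0%, 81.6% to 92.6% and 88.7% to 99.2%) and 2 hypo (93.1% to 78.9% and 99.6% to 88.4%). The exoc3-like gene exoc3l4 (84.4% to 97.5% in sperm) and the subunit gene exoc3 (90.3% to 79.0% in embryos) held 1 region each. The exoc3-like gene exoc3l2a is described with the shared places.

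Among the HOPS, CORVET and fusion factor genes vps8, vps39, vps33a and vps45, 2 held a sperm region and 1 an embryo region (1.63 and 1.56 at the same length). The CORVET gene vps8, the longest of the 115 at 134.9 kb, had 1 hyper and 1 hypo region in sperm (86.0% to 97.0% and 96.5% to 84.8%). In embryos it had 1 hyper region, from 81.5% to 95.3%, and 3 hypo regions, from 96.5% to 85.2%, 98.4% to 86.3% and 81.0% to 69.6%. In the HOPS gene vps39 the level stood at 80.6% in fresh and 98.8% in stored sperm.

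Of the retromer, retriever, GARP and EARP genes 2 of 7 held a sperm and 2 of 7 an embryo region (2.06 and 1.97 at the same length). The EARP gene vps50, a subunit of the complex that returns cargo from endosomes, held 10 regions over 124.5 kb, more than any other of the genes. In sperm a dense region of 24 cytosines near its lower-coordinate end was lower after storage (A19, 20933201 to 20933375), at 86.9% and 72.3%, and a region of 11 cytosines was higher (20998963 to 20999224), at 59.5% and 78.7%. Of its 7 embryo regions 5 were hypo, all between 10.0 and 11.3 points, and 2 hyper, from 76.8% to 92.0% and from 86.0% to 99.3%. The GARP gene vps54 had 60.4% with fresh and 78.6% with stored sperm in embryos, at a place that also lies in another protein-coding gene. In the retriever gene vps35l sperm levels were 92.2% and 81.4%.

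**Figure D3:**
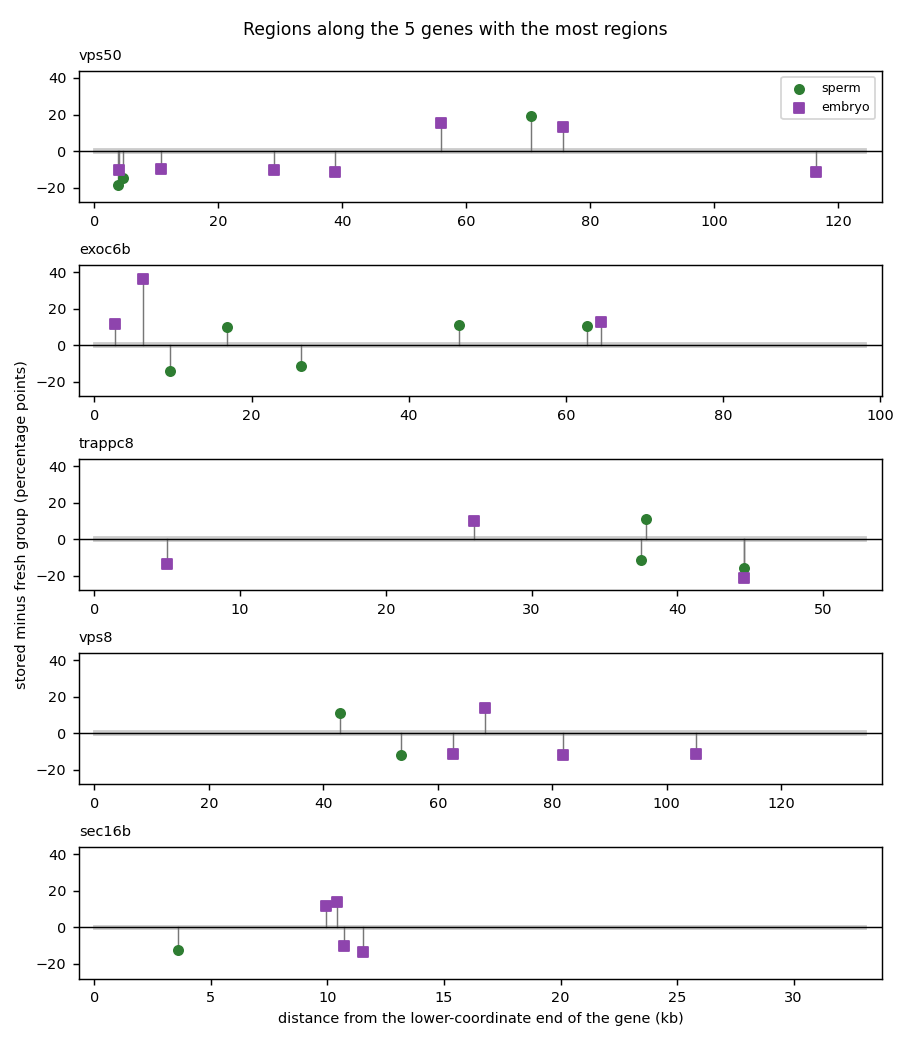
Difference of the group levels, stored minus fresh (percentage points, y axis), against the distance of each region from the lower-coordinate end of the gene (kb, x axis; grey bar, gene body), for the 5 genes with the most regions, with circles for sperm and squares for embryos. Each of the 5 genes has regions above and below 0, all 3 embryo regions of exoc6b are above it, and in trappc8 a sperm and an embryo mark share a position below it.

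In the sorting nexin genes, whose products bind phosphoinositides and shape or sort endosomal membrane, 5 of 18 held a sperm region and 6 of 18 an embryo region (5.81 and 5.47 at the same length). All 6 embryo regions were hypo, where 50.1% of genic regions of that list were hyper, while in sperm 4 of 6 were hyper. Each of the 6 embryo regions was in a different gene, and the roles were not compared by a test. The largest loss among embryo regions of the 115 genes was in snx15 (A7, 11788498 to 11788578), at 62.3% for fresh and 36.6% for stored sperm over 9 cytosines, 651 bp inside the gene's higher-coordinate end. In snx9a, a gene of clathrin-mediated endocytosis, the level was 99.5% and 84.5%, in snx13 92.7% and 78.7%, and in snx7 90.4% and 76.5%. Smaller losses were in snx8b (95.0% and 84.4%) and snx18a (97.2% and 86.6%), and the snx7 place also lies in a long non-coding RNA gene.

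In sperm snx8b and snx9a went the other way than in embryos, at other places. In snx8b (A1, 6648704 to 6648860) the level was 65.0% in fresh and 96.1% in stored sperm, the largest sperm difference of the 115 genes, 1998 bp from its embryo region. In snx9a it was 77.6% and 96.0%, 7590 bp from its embryo region. Of the others, snx2, a retromer-associated nexin, had 88.2% and 99.4%, and snx29 had 1 region in each direction, from 35.7% to 49.1% and from 97.4% to 86.5%. The flank of snx15, 171 bp outside the lower-coordinate end, had 96.2% in fresh and 86.0% in stored sperm.

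Adaptor complex genes held a sperm region in 3 of 11 and an embryo region in 4 of 11 (3.01 and 2.85 at the same length). The AP-3 complex serves lysosome-related organelles, and its genes ap3m1 and ap3m2 held no region. Both AP-3 genes reached were hyper in sperm, where 64.0% of genic regions were hyper. These were ap3b1a, with 85.8% and 96.4% and with 85.8% and 98.1% at places 1.13 kb apart, and ap3d1, with 82.1% and 94.5%. In ap1m1, the medium chain of the Golgi and endosome adaptor AP-1, a sperm region went from 98.5% to 88.1% and an embryo region 8052 bp away from 78.0% to 98.6%. For AP-2, the adaptor of endocytosis at the plasma membrane, embryo levels were 86.6% and 72.0% in ap2m1a and 86.6% and 99.4% in ap2s1. The AP-2 gene ap2a1 was outside the symbol rule and is given with the other genes. The flank of ap1s1 had 98.7% and 88.3% in embryos.

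Coat genes of the early secretory pathway were few. In the COPII group sec16b and sec23a held regions in both tissues, and sec13, sec23b and sec24c in neither, which makes 2 of 5 genes in each (1.78 in sperm and 1.64 in embryos at the same length). Sperm levels were lower after storage in sec23a, the inner coat subunit (96.3% and 85.3%), and in sec16b, the scaffold of ER exit sites (98.4% and 86.2%). In embryos sec23a had 1 region in each direction (94.3% to 83.9% and 82.3% to 95.8%). The 4 embryo regions of sec16b lay within 1.94 kb and changed sign along it, with 74.6% to 86.1% over 37 cytosines (A6, 15856144 to 15856747), then 77.0% to 91.1%, 87.6% to 77.4% and 99.7% to 86.0%. The zinc finger gene znf648 lies over all 5 places listed for sec16b, the sperm region included, so none can be assigned to either gene. Of 4 COPI genes only copb1 held a region, at 99.3% and 88.9% in embryos, 80 bp inside the gene (0.766 genes in sperm and 0.690 in embryos at the same length). In sec14l8, of the SEC14-like lipid transfer family, embryo levels were 53.0% and 69.6%.

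SNARE genes held a sperm region in 3 of 14 and an embryo region in 2 of 14 (3.12 and 2.97 at the same length). In the Golgi syntaxin gene stx5a a sperm region went from 85.1% to 96.3%. Its relative stx5al held a weakly methylated place in the gene body, with 6.67% in fresh and 19.8% in stored sperm (A21, 13473585 to 13473627). An embryo region 162 bp from it had 20.5% with fresh and 30.9% with stored sperm. A further sperm region, 2316 bp from that embryo region, was lower after storage, at 77.7% and 63.1%. It lies in the flank of stx5al and also within 1 kb of a neighbouring protein-coding gene known by a locus number.

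Of 16 ARL genes, which encode small GTPases of the Arf family and some partners, 3 held a sperm region and 1 an embryo region (2.47 and 2.35 at the same length). The flank of arl13a held a pair of hyper regions 32 bp apart, at 0.740% in fresh and 13.0% in stored sperm (B14, 16584004 to 16584037) and at 3.32% and 15.9%. The flank of arl5c had 38.5% and 20.9% over 12 cytosines (A3, 26661067 to 26661193). In arl15b sperm levels were 98.1% and 87.0%, and both embryo regions were hyper, at 81.8% and 95.4% and at 86.2% and 96.9%.

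Of the autophagy genes 4 of 8 held a sperm and 1 of 8 an embryo region (2.35 and 2.20 at the same length). These are few genes, and the difference between the lists was not tested. The flank of atg13, a subunit of the kinase complex that starts autophagosome formation, had 99.1% in fresh and 80.6% in stored sperm (B7, 22784387 to 22784525). This place lies 718 bp outside atg13 and in the body of another protein-coding gene. In atg4a, a protease that processes the Atg8 proteins of the autophagosome, the level was 66.2% in fresh and 47.9% in stored sperm (B21, 18281252 to 18281268). Hyper regions lay in atg10, of the Atg12 conjugation system (87.2% and 99.2%), and at both sperm places of atg16l2, a relative of the Atg8 lipidation factor atg16l1 (85.3% and 99.0%, and 84.3% and 99.3%). In embryos atg16l2 was also hyper, at 85.4% and 96.9%, 817 bp from a sperm region. The genes atg14, atg16l1, atg2a and atg4b held no region.

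**Figure D4:**
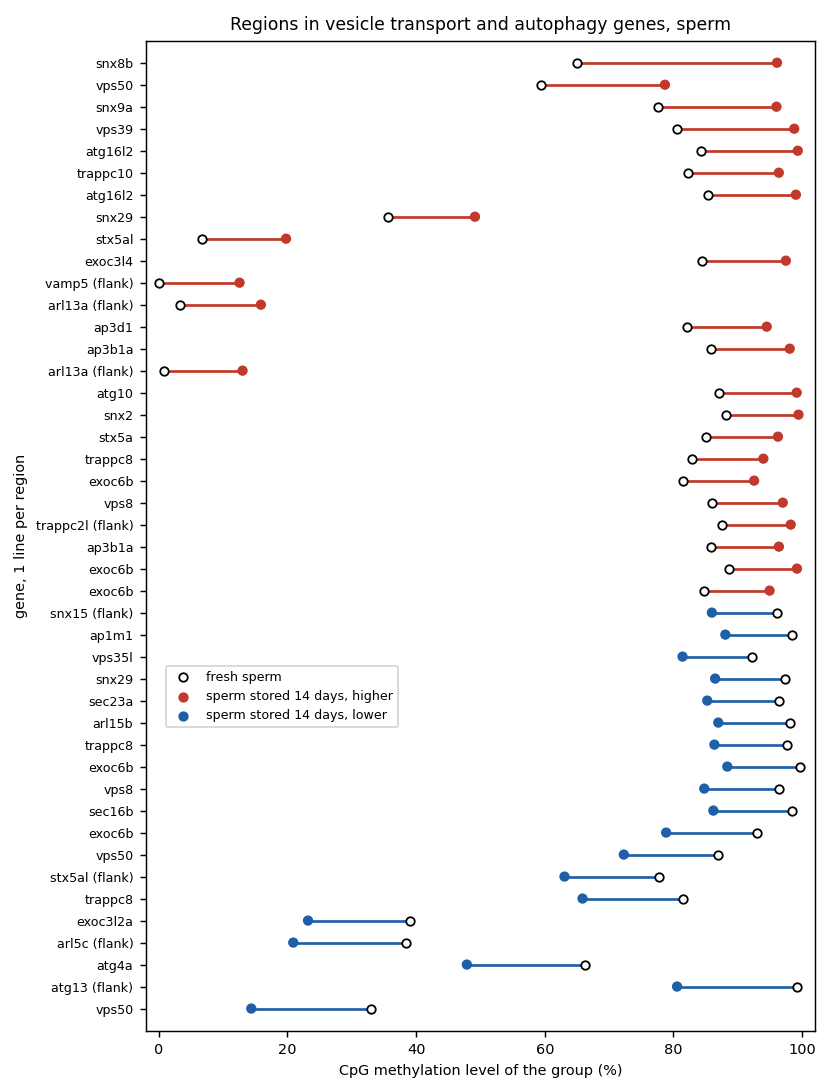
Group methylation level (percent, x axis) of each of the 44 sperm regions of vesicle transport and autophagy genes (y axis, 1 line per region, ordered by difference), with open circles for fresh sperm and filled circles for sperm stored for 14 days. The 25 upper lines are higher and the 19 lower lines are lower after storage, and the line of snx8b, from 65.0% to 96.1%, is the longest.

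**Figure D5:**
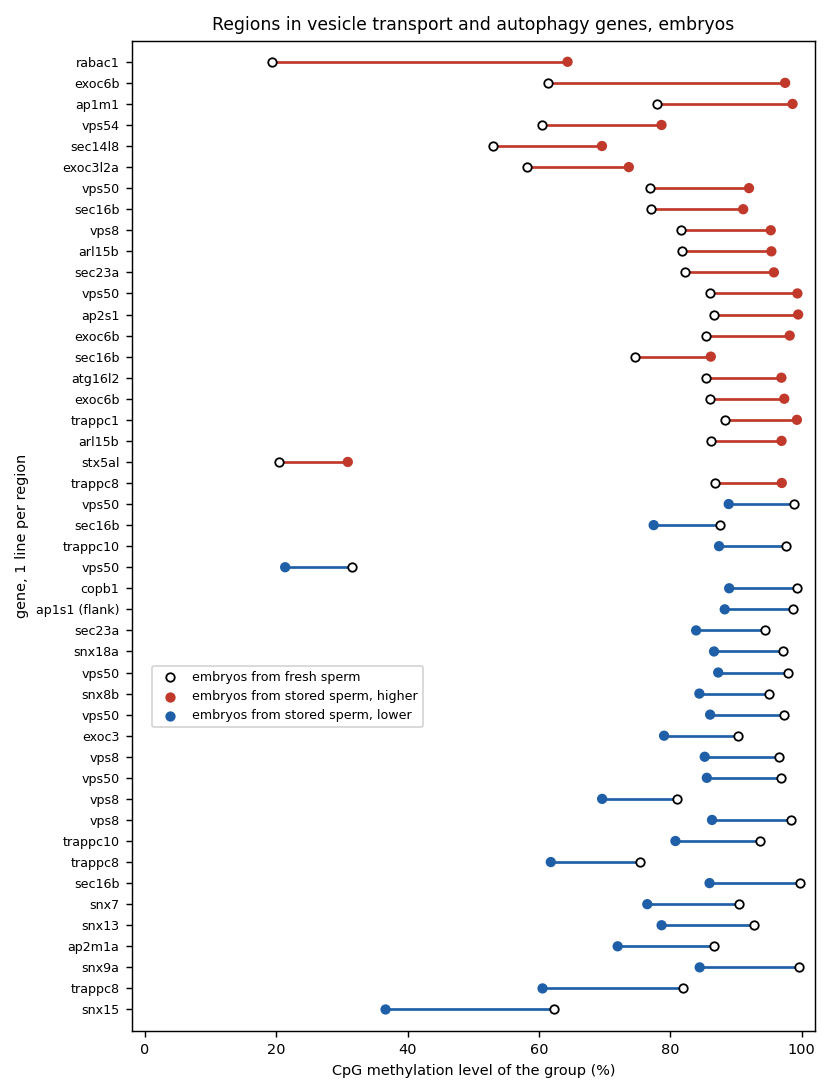
Group methylation level (percent, x axis) of 46 of the 48 embryo regions of vesicle transport and autophagy genes (y axis, 1 line per region, ordered by difference), with open circles for embryos from fresh sperm and filled circles for embryos from stored sperm. The 21 upper lines are higher and the 25 lower lines are lower with stored sperm, and rabac1, from 19.3% to 64.3%, has the longest line.

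Regions of sperm and embryos overlapped at 3 places, in trappc8, vps50 and exoc3l2a. They made up 6.82% of the sperm and 6.25% of the embryo regions of these genes, against 6.95% and 7.41% for all genic regions. In trappc8 the same stretch of 6 cytosines was listed in both (B20, 10836930 to 10837135). It had 81.5% in fresh and 65.9% in stored sperm, while the embryo levels were 81.9% with fresh and 60.5% with stored sperm. In vps50 the sperm region (A19, 20932575 to 20932607) lay within the embryo region (20932537 to 20932681), with 33.0% and 14.4% in sperm and 31.5% and 21.3% in embryos. Both places were thus lower in the stored group in both tissues. Levels in fresh sperm and in the embryos it gave were alike over the same stretch in trappc8. In vps50 they were alike too, but over unlike stretches, with 5 cytosines in sperm and 16 in embryos. In exoc3l2a, whose regions shared 39 bp, directions were opposite. The sperm region (B5, 11606218 to 11606302) had 39.1% and 23.2%, and the embryo region of 29 cytosines (11605912 to 11606256) 58.1% and 73.7%. Over all 1509 overlapping pairs of genic regions 47.4% had the same direction, so that 2 of 3 is too few to set beside it.

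Whole genes were then compared by direction. In 8 of the 15 genes with regions in both tissues all regions of a tissue had 1 direction. It was the same in atg16l2 (hyper) and snx15 (hypo), and opposite in ap1m1, arl15b, exoc3l2a, snx8b, snx9a and trappc10. Over all 3020 such protein-coding genes 49.5% had the same direction, and 8 genes are too few to set beside them. The other 7 were mixed in sperm, in embryos or in both. Of the 44 sperm regions 7 lay within 1 kb of an embryo region, the 3 overlaps included (15.9%, against 18.1% of genic regions).

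Position relative to gene ends differed between the lists in number. In sperm 8 of 44 regions lay in a flank (18.2%, against 5.34% of genic regions) and none in the outermost 1 kb of a gene body. The shares are not counted alike, as a genic region is in a flank only if it touches no protein-coding gene body. The flank regions of atg13 and trappc2l lie in the body of another protein-coding gene, so the genic count would not hold them. The arl13a pair, 32 bp apart, counts as separate regions. In embryos 1 of 48 lay in a flank (2.08%, against 5.68%) and 5 in the outermost 1 kb of a gene body (10.4%, against 7.90%), those of rabac1, copb1, trappc1, snx15 and ap2s1. The gene table gives no strand, so whether an end is the start of transcription is not known. Weakly methylated places, with a mean below 25%, made up 5 of 44 sperm regions (11.4%, against 2.69%) and 0 of 48 embryo regions (3.11% of genic regions). They were the flanks of vamp5 and arl13a and the places given for stx5al and vps50. These are the same 5 sperm regions whose levels at least doubled or halved. Those of vamp5 and arl13a are also among the 8 flank regions, so the shares are not separate observations. In stx5al and vps50 an embryo region at or near the weakly methylated sperm place had a mean of 25.7% and 26.4%. Both means are just above the cutoff, so the 0 in embryos depends on it. The flank of vamp5, which encodes a muscle-enriched VAMP, was listed at 3.33e-05% in fresh and 12.5% in stored sperm (A5, 16397668 to 16397719), 839 bp outside the gene. That fresh level is in effect unmethylated, so its fold change has no meaningful size. The differences of these shares from the genic regions were not tested.

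The genes without a region included 1 whole role group, and also near relatives of genes with a region. None of the 7 ESCRT and other vps genes (vps25, vps36, vps37bb, vps37c, vps4a, vps72a, vps72b) held a region, where genes of the same length would give 1.11 in sperm and 1.05 in embryos. Among 10 pairs of genes whose symbols differ only in a final a or b, 9 had a region in 1 of the pair and none in the other, and in the remaining pair neither had one. Over all 734 such pairs of protein-coding genes, 40.1% had a region in 1 of the pair, 23.4% in both and 36.5% in neither, and the difference was not tested. The genes with a region included ap2m1a, arl13a, atg4a, exoc3l2a, sec23a, snx18a, snx8b and snx9a. The gene with regions was the longer of the pair in 4 of the 9.

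Other genes of the same processes were counted from a list of stems such as those of clathrin, dynamin, COG, CHMP, COMMD, WASH, NSF-linked, ULK and Atg8 genes. Of 87 such genes 26 held a sperm region (28.1 at the same length) and 23 an embryo region (26.8). They gave 28 hyper and 14 hypo regions in sperm and 23 hyper and 25 hypo in embryos. Of all genic regions 64.0% were hyper in sperm and 50.1% in embryos. Among the 2 largest gains and losses of each list, wipi2 and commd10 appeared in both at overlapping places. They were picked by size, and overlaps over all 87 genes were not counted, so they do not describe these genes as a set. The flank of wipi2, which encodes a phosphoinositide-binding protein of the forming autophagosome (B3, 19864349 to 19864412), had 45.6% in fresh and 14.0% in stored sperm, and 36.2% and 9.89% in embryos. The gene commd10, of a family that works with retriever, was higher in both, at 24.4% and 62.7% in sperm and 29.3% and 63.5% in embryos. Sperm levels were 98.7% and 73.5% in the clathrin heavy chain gene cltcl1 and 78.8% and 97.1% in nbas, a factor of Golgi to ER transport. Embryo levels were 55.5% and 29.1% in ap2a1, the large AP-2 subunit, and 46.3% and 73.6% in stxbp5l, a syntaxin-binding gene.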

How the data were processed

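The authors mapped clean bisulphite reads to the carp RefSeq assembly with BSMAP, whose version is not given in the sources read, removed duplicates and took methylated over all reads at a cytosine as its level. The deposited tables give each group's level as a fraction (0 to 1), printed here as a percentage. The authors also deposited a signed score per region, computed as the fresh minus the stored level, a p-value and the number of cytosines. The differences printed here were recomputed as stored minus fresh, and the deposited p-value served only as a stricter filter (below 0.001). A Fisher test is named in the methods, whereas 99.9% of p-values in each list gave a whole rank sum (within 0.05) for a rank-sum test with 3 values per cytosine and group, which does not measure the spread between libraries. Most listed regions did not meet the stated 2-fold change.

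Regions were joined by position to the RefSeq gene table of the same assembly (ASM1834038v1) with Python 3.11.15, pandas 2.3.3, numpy 2.4.6 and scipy 1.17.1. Chromosome accessions in sorted order were taken as the A and then the B chromosomes, 50 in all, on which the last region and last gene ended a median of 19.5 kb apart (largest 129.6 kb). A region counted for a gene when it touched the body or a 1 kb flank. The number at the same length used the share of other genes in 20 length bins. The join was tested on simulated data. Regions on unplaced sequence (3143 in sperm, 3059 in embryos) were not assigned. No test over libraries was possible, and counts are descriptions. Members, roles and lists were chosen with earlier results of these data known. The text names, per list and direction, the 12 regions with the largest difference, flank regions of at least 15 points, overlaps, the 5 genes with most regions and rabac1. The other regions were added after their values were seen, so that each role is covered. The regions of 1 gene enter the counts and are not reported here by name. Alternatives were stricter filters, other flanks, bins and overlaps, and shorter gene lists.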

Additional observations from a re-analysis of the deposited data

How the results depend on the processing

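Depth per region and values per library were not used here, so no call can be weighed against the spread between replicates and leaving out a library could not be run. No paired analysis was possible because the tables give 1 level per group. The number of genes with a region followed the filter. With a difference of at least 20 points it was 1 in sperm and 5 in embryos, with at least 10 cytosines 4 and 7, and with a deposited p-value below 0.001 10 and 11. Set against genes of the same length under the same filter, these were 0.264 and 1.29 times, 0.848 and 1.40 times, and 1.12 and 1.25 times the expected number. With a 5 kb flank 40 genes held a sperm and 45 an embryo region (43.9 and 41.5 at the same length), and with 10 or 50 length bins the expected numbers moved by less than 0.3. The hyper share in sperm was 40.0% (2 of 5 regions) with at least 10 cytosines and 100% at 20 points, where 1 region was left. In embryos the hyper share was 60.0% (3 of 5) at 20 points and 57.1% (4 of 7) with at least 10 cytosines. Under the deposited p-value filter (below 0.001) it was 61.5% (8 of 13) in sperm and 35.7% (5 of 14) in embryos. Without the 5 genes with most regions, an alternative chosen after seeing the data, it was 63.3% in sperm and 48.1% in embryos. Overlapping places numbered 0 at 20 points, 0 with at least 10 cytosines, 0 with a p-value below 0.001 and 5 with a 5 kb flank, and 2 of the 3 overlapped by at least 50% of the shorter region. Gene bodies alone, and the list without translocon, SEC14-like and arl6ip genes, left counts within 1.5 times and hyper shares within their 95% Wilson interval. That interval takes regions as independent, although some lie in the same gene. Of the genes left out, only sec14l8 held a region, in embryos, so little could change. The list without vps72 and arl6ip genes was chosen after seeing the data. As these genes held no region, its counts and hyper shares could not change.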

Other observations

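The count of cytosines per region includes both strands. In sperm 235 and in embryos 229 regions were too short for their number of cytosines if each CpG counted once, and the shortest regions held 5 cytosines in 6 bp, for which 3 CpGs are enough. Regions of 5 cytosines made up 31 of the 44 sperm regions of these genes (70.5%, against 61.8% of genic regions). In embryos they made up 27 of the 48 (56.3%, against 60.5%). The smallest of them may therefore rest on few CpGs.

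Gene symbols were spread unevenly over the subgenomes. Of the 115 genes 79 (68.7%) lay on B and 36 on A chromosomes, and of all protein-coding genes with a symbol 67.0% lay on B, although B holds 21598 and A 20272 protein-coding genes. Partner copies on the A chromosomes may therefore be missing from the genes described here. On A chromosomes 13 of 36 genes held a sperm and 11 an embryo region (9.78 and 9.24 at the same length), and on B chromosomes 17 of 79 held a region in each list (20.4 and 19.3). Of all protein-coding genes 28.1% on A and 28.5% on B held a sperm region, and 27.0% and 26.8% an embryo region. These differences were not tested.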
